A study of Mus musculus with 48 samples.

Results

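Osteopontin, its receptor Cd44 and 8 integrin subunits were followed through the 4 cell types of the neurovascular unit (NVU) after experimental ischemic stroke. The 10 genes, chosen by name, were *Spp1*, *Cd44*, *Itgb1*, *Itgb3*, *Itgb5*, *Itgav*, *Itga4*, *Itga5*, *Itga8* and *Itga9*, and each was 1 row among the 24973 genes of the deposited table. Male C57BL/6 mice aged 12 to 15 weeks underwent transient middle cerebral artery occlusion (tMCAO), in which a filament closed the artery for 1 h and was then withdrawn for 23 h of reperfusion. Microglia, astrocytes, pericytes and endothelial cells all came from the same pools of 3 to 4 brains and were sorted once from the ipsilateral (occluded) and once from the contralateral hemisphere, which gave 8 groups of 6 replicates and 48 libraries. The contralateral hemisphere of the same mice was the control, no sham-operated group was among the samples, and mice with a mild neurological deficit or early death had been left out by the study. Microglia were gated as CD45 low and CD11b positive, and the other 3 cell types as CD45 negative. Because each library holds the RNA of a sorted population from pooled mice, fewer expressing cells and less RNA per cell cannot be told apart.

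Osteopontin is a secreted, phosphorylated glycoprotein of bone matrix and of activated macrophages and microglia. An arginine-glycine-aspartate motif lets it bind integrins that contain the αv subunit, as well as the pairs of α5 or α8 with β1, and cleavage by thrombin or metalloproteinases exposes a neighbouring site for the pairs of α4 or α9 with β1. Cd44, best known as the receptor for hyaluronan, is a further receptor. Integrins work only as pairs of 1 α and 1 β subunit, so the level of a single subunit does not give the level of a receptor.

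*Spp1* lies on the forward strand of chromosome 5 (GRCm38, 104435118 to 104441050) and *Cd44* on the reverse strand of chromosome 2 (102811141 to 102901665). *Itgav*, *Itga4* and *Itga8* are also on chromosome 2, *Itgb1* on 8, *Itga9* on 9, *Itgb3* on 11, *Itga5* on 15 and *Itgb5* on 16. Because *Spp1* and *Cd44* were higher in the ipsilateral hemisphere in all 6 replicate pairs of all 4 cell types, as described below, the 250 bases before their first start sites are shown. The sequences are from RefSeq, build GRCm38.p6, at chr5:104434861-104435110 on the forward and chr2:102901666-102901915 on the reverse strand, written 5′ to 3′ with motif matches in capitals.
Spp1: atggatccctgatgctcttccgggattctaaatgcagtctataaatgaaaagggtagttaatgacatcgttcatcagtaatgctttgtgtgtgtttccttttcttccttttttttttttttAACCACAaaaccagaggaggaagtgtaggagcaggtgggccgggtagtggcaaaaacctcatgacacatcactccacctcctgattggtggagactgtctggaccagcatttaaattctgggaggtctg
Cd44: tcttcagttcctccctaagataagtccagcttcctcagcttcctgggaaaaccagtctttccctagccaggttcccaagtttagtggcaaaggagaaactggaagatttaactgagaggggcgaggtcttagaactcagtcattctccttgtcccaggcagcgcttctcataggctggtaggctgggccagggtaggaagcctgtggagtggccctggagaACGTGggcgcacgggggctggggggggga
The capitals in the *Spp1* window mark the RUNX motif AACCACA, at positions -129 to -123 from the start site, which 4.40% of 32851 mouse promoter windows of this length hold on either strand. Those in the *Cd44* window mark the hypoxia response core ACGTG, at positions -29 to -25, which 16.6% of windows hold. This core was also matched in the *Itga9* window (chr9:118711442-118711691), which lies inside that gene (118606690 to 118901003) and not before its first base. The AP-1 motif TGANTCA (6.75% of windows) and a motif for NF-κB (0.356%) were in none of the windows of the 9 genes with an entry, which leaves out *Itgb3*. These matches describe letters and not binding.

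The unit throughout is the normalized count, which is the number of reads on a gene divided by a size factor for its library, as deposited. A library held 10549900 to 16942165 normalized counts in all. The steps between its low values put the worth of 1 read at 0.66 to 2.37 normalized counts, or 4900000 to 17100000 reads on genes. A floor of 3 reads therefore lies between 2.0 and 7.1 normalized counts and covers counting error only. Defining markers fit the labelled cell types, since the summed markers of endothelial cells, pericytes and astrocytes (4 genes each) and of microglia (10 genes) were higher in every library of their own cell type than in any other library. Microglial RNA in the other cell types was uneven, however. The 10 microglial markers summed to between 2.78% and 22.0% of their level in the same-numbered microglia library in ipsilateral endothelial cells of replicates 1 to 4, and to between 0.269% and 0.306% in replicates 5 and 6. The ranges were 3.77% to 27.4% against 0.186% to 0.209% in ipsilateral pericytes, and 1.65% to 10.6% against 0.385% to 0.509% in ipsilateral astrocytes. None of the 10 markers was at 0 in all 6 libraries of a group. Sample titles and table columns disagreed for 12 ipsilateral libraries, with pericytes and microglia exchanged, and the columns, which the markers follow, were used.

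The ipsilateral and contralateral libraries of a cell type were compared with limma after log2(normalized count + 1), a scale on which changes of weakly expressed genes are understated. This main fit left the libraries unpaired, and results with 1 replicate left out also come from unpaired fits. Fits blocked by replicate were not repeated with a replicate left out, so these losses of calls hold for the unpaired fit only. How the calls over all genes moved in those fits is given in the last section. A gene was called changed when its adjusted p (Benjamini-Hochberg) was 0.05 or less, its fold change 1.5 or more, and all 6 replicates of 1 hemisphere or both exceeded 10 normalized counts. Same-numbered libraries come from the same mice, so values blocked by replicate number are also given where the block alters a call and for the called astrocyte genes. Of the 10 genes, 9 in endothelial cells and 10 in each of the other cell types averaged 10 or more normalized counts across the 12 libraries and were tested.

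In endothelial cells, 0 of the 9 tested genes were called (limma; 3 had an unadjusted p under 0.05), against 0.362% of all 13242 tested genes called higher and 0.128% called lower. With the replicate block, *Spp1* and *Cd44* were called higher, against 0.378% and 0.174% of all genes. In pericytes, *Cd44* was called higher and *Itga8* lower, with 0.441% and 0.581% of 13597 genes as the background. With the block, *Cd44* and *Spp1* were called higher and 0 genes lower, against 0.684% and 0.978%. In astrocytes, *Cd44* and *Itga5* were called higher and 0 lower, against 0.334% and 0.00655% of 15264 genes without the block and 1.25% and 0.334% with it. In microglia, *Spp1*, *Cd44* and *Itga5* were called higher and *Itgb3* and *Itga9* lower, against 4.29% and 6.27% of 13300 genes. These 5 calls also held with the block, where 4.54% and 6.50% of all genes were called. *Itgb1*, *Itgb5*, *Itgav* and *Itga4* were called in no cell type by either fit. The median log2 difference of all tested genes was between -0.18 in microglia and -0.03 in endothelial cells.

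**Figure D1:**
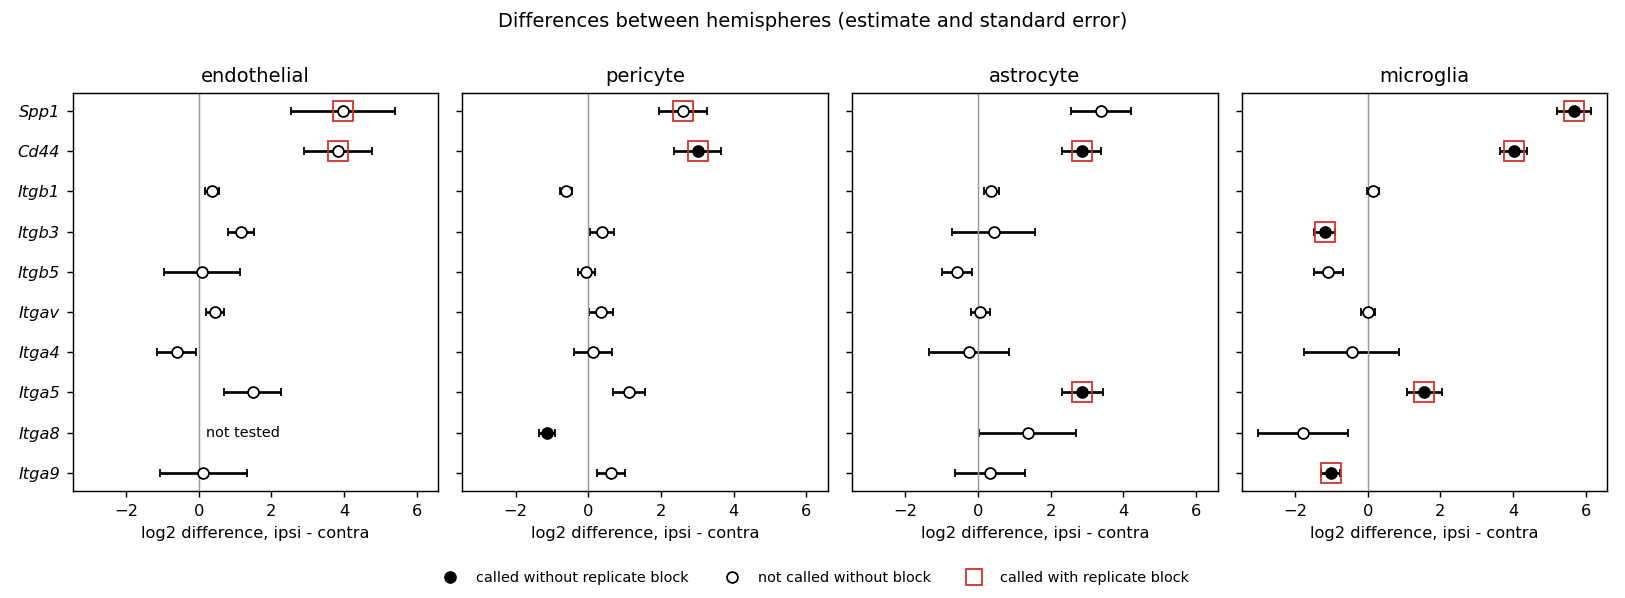
Log2 difference of normalized counts, ipsilateral minus contralateral, with its standard error (horizontal axis) for each gene (rows) in the 4 cell types (panels), from limma on 6 against 6 libraries. Filled points were called without a replicate block and red squares with it. *Spp1* and *Cd44* lie to the right of 0 in every panel, while *Itgb3* and *Itga9* lie to the left in microglia and *Itga8* in pericytes.

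Per kb of exon, *Spp1* had the highest level of the 10 genes in ipsilateral microglia. Normalized counts there had a lowest value of 87954, a median of 257205.5 and a highest value of 707269, against 2594, 4368 and 9637 in contralateral microglia. The hemispheres did not overlap. This gave a log2 difference of 5.68 ± 0.46 (SE, n = 6 per group; limma, adjusted p = 5.8e-06), a 51.4-fold increase on the log2(value + 1) scale. Within pairs, the log2 difference ranged from 4.20 to 7.48 and had a mean of 4.23 in pairs 5 and 6 and 6.41 in pairs 1 to 4.

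In contralateral pericytes, *Spp1* normalized counts ranged from 2050 to 9435 with a median of 4108.5, close to those of contralateral microglia. In ipsilateral pericytes, the lowest value was 6133, the median 29718.5 and the highest 112736, and the hemispheres overlapped. All 6 pairs were higher on the ipsilateral side, with a log2 difference of 2.61 ± 0.66 (SE, n = 6; limma, adjusted p = 0.0804, and 0.0377 with the replicate block). The mean log2 difference was 3.58 in pairs 1 to 4 and 0.69 in pairs 5 and 6.

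In endothelial cells, *Spp1* normalized counts had a lowest value of 68, a median of 425.5 and a highest value of 3309 contralaterally and of 276, 19543 and 85525 ipsilaterally. The groups overlapped because replicates 5 and 6, at 312 and 276 on the ipsilateral side, lay below 4 of the contralateral libraries. Each pair was nonetheless higher on the ipsilateral side. The log2 difference was 3.96 ± 1.43 (SE, n = 6; limma, adjusted p = 0.27, and 0.0369 with the replicate block), and the mean over pairs was 5.06 in pairs 1 to 4 and 1.77 in pairs 5 and 6.

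Astrocytes had *Spp1* normalized counts of 340 to 1962 contralaterally with a median of 816.5, and of 1624 to 42687 ipsilaterally with a median of 7748. Ipsilateral replicates 5 and 6, at 1685 and 1624, were within the contralateral range. Ipsilateral minus contralateral, the log2 difference was 3.38 ± 0.82 (SE, n = 6; limma, adjusted p = 0.144, and 0.0515 with the replicate block). It had a mean of 4.88 in pairs 1 to 4 and 0.37 in pairs 5 and 6, where it was 0.35 and 0.39.

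**Figure D2:**
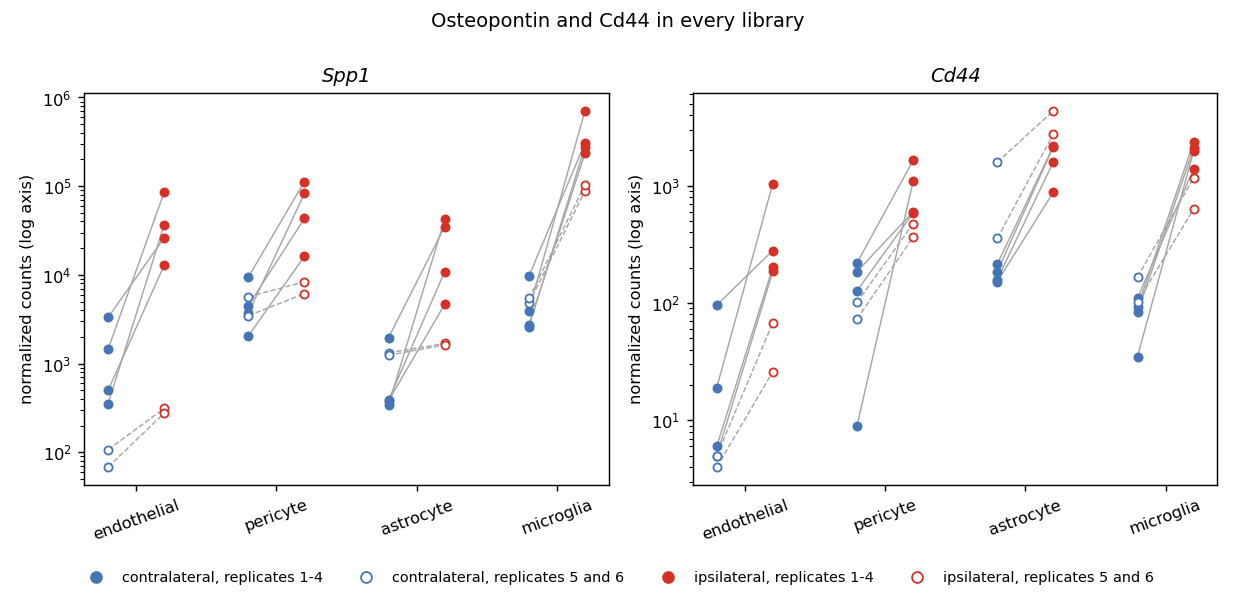
Normalized counts (log axis) of *Spp1* (left) and *Cd44* (right) in each of the 48 libraries by cell type, contralateral in blue and ipsilateral in red, with lines joining the hemispheres of 1 replicate. Open points and broken lines are replicates 5 and 6. Every line rises, and the broken *Spp1* lines rise least in each cell type.

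The level of *Spp1* outside microglia was set beside the microglial markers of the same libraries, and the part of microglial RNA in the differences was not tested. In ipsilateral endothelial cells, *Spp1* ranged from 3.71% to 27.9% of its level in the same-numbered microglia library for replicates 1 to 4 and was 0.355% and 0.267% for replicates 5 and 6, ranges near those of the markers. In ipsilateral pericytes, *Spp1* was at 6.97% and 8.09% of the microglial level in replicates 5 and 6, where the markers were at 0.209% and 0.186%. The contralateral pericytes held *Spp1* at 72.6% to 143% of the contralateral microglial level, with the microglial markers at 0.101% to 5.32%. Contralateral endothelial *Spp1* was at 12.8% to 83.6% in replicates 1 to 4 and 1.26% to 2.24% in 5 and 6, with the markers at 1.68% to 4.55% and 0.21% to 0.24%. For contralateral astrocytes, *Spp1* was at 3.53% to 49.6% and 23.0% to 27.6%, with the markers at 0.783% to 6.1% and 0.402% to 0.483%. In ipsilateral astrocytes, the range was 1.98% to 13.9% for replicates 1 to 4, and the values were 1.92% and 1.57% for replicates 5 and 6. Markers of monocytes and macrophages (8 genes) and of neutrophils (8 genes) were also mostly higher in ipsilateral replicates 1 to 4 than in 5 and 6. The first summed to 1258 to 6167 normalized counts in ipsilateral endothelial cells of replicates 1 to 4 and to 274 to 290 in replicates 5 and 6, and the second to 2134 to 10155 against 78 to 251. In ipsilateral pericytes, monocyte and macrophage markers were at 1052 to 9332 against 109 to 117 and neutrophil markers at 44 to 13115 against 50 to 155, and in ipsilateral astrocytes at 320 to 2475 against 245 to 253 and 382 to 5436 against 223 to 391. The neutrophil sum of replicate 1 was thus below both replicates 5 and 6 in pericytes, at 44. In astrocytes it was 382, between replicate 5 at 223 and replicate 6 at 391. In contralateral libraries, monocyte and macrophage markers were between 37 and 1192 in these 3 cell types. The neutrophil genes *Camp* and *Ngp* were at 0 in all contralateral endothelial libraries, *Ly6g* and *Camp* in all contralateral pericyte libraries, and *Camp* in all ipsilateral endothelial libraries.

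**Figure D3:**
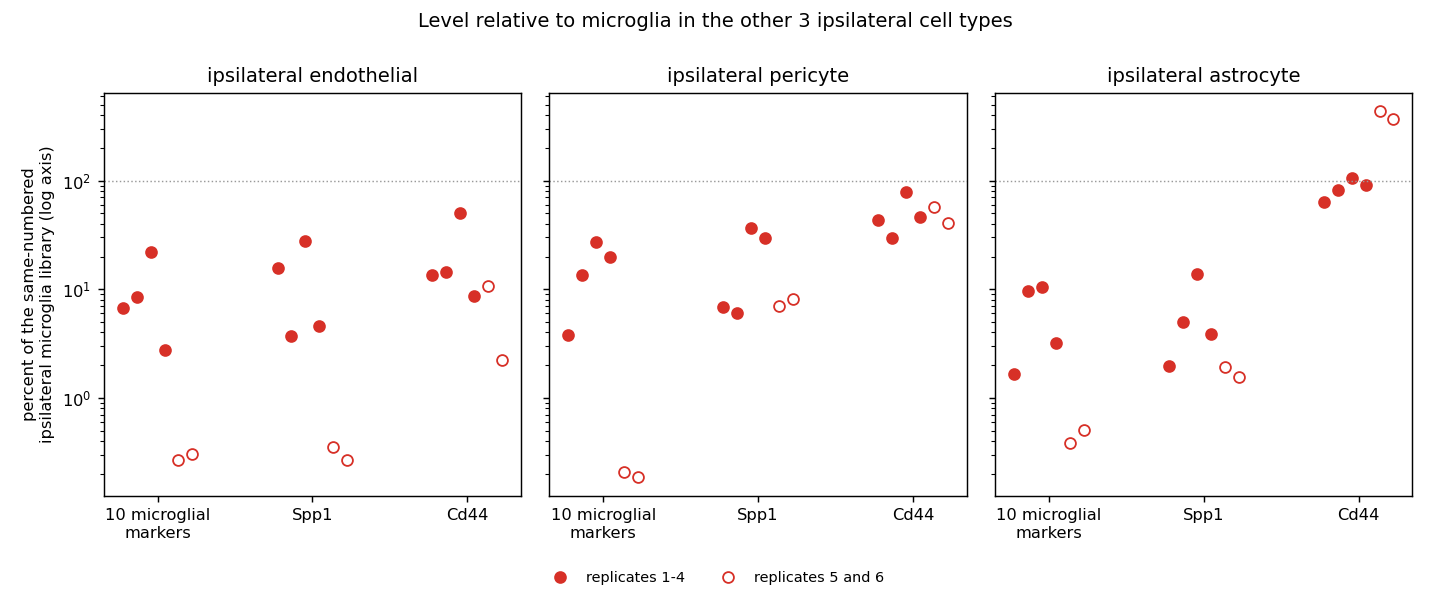
Level in ipsilateral endothelial cells, pericytes and astrocytes (panels) as a percent of the same-numbered ipsilateral microglia library (log axis), for the sum of 10 microglial markers, for *Spp1* and for *Cd44*. Points are replicates in order from left to right, open for replicates 5 and 6, and the dotted line is 100%. In replicates 5 and 6, *Spp1* is near the markers in endothelial cells and above them in pericytes and astrocytes, while *Cd44* is above the markers in all 3 cell types.

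*Cd44* was called higher in pericytes, astrocytes and microglia, and in endothelial cells with the replicate block. In contralateral microglia, its normalized counts had a lowest value of 35, a median of 97 and a highest value of 166, against 631, 1675 and 2342 in ipsilateral microglia. The hemispheres were separate, and the log2 difference was 4.02 ± 0.37 (SE, n = 6; limma, adjusted p = 2.1e-05). The mean over pairs was 4.67 in pairs 1 to 4 and 2.71 in pairs 5 and 6.

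Astrocytes had the highest contralateral *Cd44* level. There, 5 of the 6 libraries were between 152 and 356 normalized counts and replicate 6 was at 1580, while ipsilateral astrocytes ranged from 879 to 4336 with a median of 2156. The groups overlapped through that 1 library, and all 6 pairs were higher. The log2 difference was 2.85 ± 0.53 (SE, n = 6; limma, adjusted p = 0.0393, and 5.8e-04 with the replicate block, where the SE was 0.25). In the unpaired fits with 1 replicate left out, the estimate ran from 2.72 to 3.13, and the call held only without replicate 6. The blocked fit was not repeated in this way. Replicates 5 and 6 had the highest ipsilateral values, 2747 and 4336, which were 435% and 373% of the same-numbered microglia libraries, where the microglial markers were at 0.385% and 0.509%.

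In pericytes, *Cd44* was at 9 to 219 normalized counts contralaterally with a median of 114 and at 363 to 1638 ipsilaterally with a median of 590.5, without overlap. The log2 difference was 3.01 ± 0.65 (SE, n = 6; limma, adjusted p = 0.0447), and the mean was 3.38 in pairs 1 to 4 and 2.26 in pairs 5 and 6. Replicate 4, at 9 normalized counts contralaterally, gave the highest pair difference of 6.76, and the estimate without that replicate was 2.26. The call was lost when any 1 of the 6 replicates was left out. In replicates 5 and 6, *Cd44* was at 57.5% and 40.8% of the microglial level, where the microglial markers were at 0.209% and 0.186%.

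Endothelial *Cd44* was the lowest of the 4 cell types. In contralateral libraries it was at 4 to 19 normalized counts in 5 replicates, near the floor, and at 96 in replicate 2, while ipsilateral libraries ranged from 26 to 1042 with a median of 194. The groups overlapped only in contralateral replicate 2. On the log2 scale the difference was 3.84 ± 0.93 (SE, n = 6; limma, adjusted p = 0.093, and 0.0468 with the replicate block), with a mean of 4.26 in pairs 1 to 4 and 2.98 in pairs 5 and 6. Relative to microglia, ipsilateral endothelial *Cd44* ranged from 8.63% to 50.3% for replicates 1 to 4 and was 10.8% and 2.24% for replicates 5 and 6, where the markers were at 0.269% and 0.306%.

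Among the β subunits, *Itgb1* encodes the shared partner of the α subunits studied here. Its level in pericytes was 28844 to 37554 normalized counts contralaterally and 16259 to 27831 ipsilaterally. The hemispheres did not overlap and all 6 pairs were lower on the ipsilateral side, but the log2 difference of -0.61 ± 0.17 (SE, n = 6) did not pass the adjusted test (limma, adjusted p = 0.104). The differences in the other cell types were 0.37 ± 0.20 in endothelial cells, 0.37 ± 0.21 in astrocytes and 0.14 ± 0.17 in microglia (SE), none called.

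*Itgb3*, the partner of αv in the vitronectin receptor and also a subunit of the platelet fibrinogen receptor, was called lower in microglia. Contralateral microglia ranged from 541 to 934 normalized counts with a median of 693 and ipsilateral microglia from 175 to 491 with a median of 346.5, so the hemispheres were separate. The log2 difference was -1.18 ± 0.29 (SE, n = 6; limma, adjusted p = 0.0171), with a mean of -1.58 in pairs 1 to 4 and -0.37 in pairs 5 and 6. The call was lost without replicate 3 or replicate 4, with estimates between -1.38 and -1.0 over the replicates left out. Endothelial cells moved the other way without a call, from 68 to 182 normalized counts contralaterally to 184 to 399 ipsilaterally. These endothelial groups did not overlap, and the log2 difference was 1.16 ± 0.35 (SE, n = 6; limma, adjusted p = 0.177). Pericytes, with 142 to 558 normalized counts, and astrocytes, with 0 to 105, had no called difference in *Itgb3*.

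*Itgb5*, another partner of αv, had a log2 difference of -1.09 ± 0.40 in microglia (SE, n = 6; limma, adjusted p = 0.0908). Contralateral microglia were at 4521 to 5523 normalized counts in 5 replicates and at 21423 in replicate 1, against 1470 to 5611 ipsilaterally. Pairs 1 to 4 were lower on the ipsilateral side by a mean of -1.71, and pairs 5 and 6 differed by a mean of 0.15. In the other cell types the estimates were between -0.58 in astrocytes and 0.09 in endothelial cells.

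Among the α subunits, *Itgav*, which pairs with each of these β subunits, had estimates between 0.01 ± 0.19 in microglia and 0.45 ± 0.25 in endothelial cells (log2, SE, n = 6) and 0 calls (limma; no unadjusted p was under 0.05). Endothelial cells ranged from 143 to 309 normalized counts, pericytes from 344 to 1568, microglia from 870 to 1548 and astrocytes from 1746 to 4685, both hemispheres included.

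*Itga5*, whose product pairs with β1 as the fibronectin receptor, had positive estimates in all 4 cell types. In astrocytes, its normalized counts rose from a lowest value of 20, a median of 121 and a highest value of 280 to 346, 753.5 and 1475, without overlap and in 6 of 6 pairs. Its log2 difference was 2.87 ± 0.57 (SE, n = 6; limma, adjusted p = 0.0466, and 5.8e-04 with the replicate block, where the SE was 0.25). The pairs ranged from 2.35 to 4.05, and pairs 5 and 6, with little microglial marker RNA, had a mean of 2.41. Left-out replicates gave unpaired estimates between 2.64 and 2.98, and the unpaired call held only without replicate 6. The blocked fit was not repeated in this way. In microglia, 703 to 1806 normalized counts contralaterally stood against 3665 to 4782 in 5 ipsilateral libraries and 485 in the sixth, replicate 2. That library was below every contralateral value, and 5 of 6 pairs were higher. It also had the highest total of the 48 libraries, 16942165 normalized counts. Its 8 neutrophil markers summed to 19288, against 4298 to 6809 in the other ipsilateral microglia, and a link to its *Itga5* value was not tested. The same sum was 6408 to 7971 in contralateral microglia, with *Ly6g* at 0 in all 6 libraries. In microglia the list therefore has a baseline and does not measure neutrophil content alone. The microglial log2 difference was 1.56 ± 0.48 (SE, n = 6; limma, adjusted p = 0.0493), and 1.98 without replicate 2. It lost its call without any of the other 5 replicates, with estimates down to 1.38.

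Pericyte *Itga5* was at 517 to 2000 normalized counts contralaterally and 842 to 4600 ipsilaterally, higher in all 6 pairs by 0.70 to 2.46 on the log2 scale. The difference of 1.12 ± 0.43 (SE, n = 6) was not called (limma, adjusted p = 0.23, and 0.0505 with the replicate block). In endothelial cells, the ipsilateral libraries were at 2561 to 3400 normalized counts except replicate 1 at 194, and the contralateral libraries at 669 to 1721 except replicate 2 at 76. The estimate of 1.49 ± 0.79 (SE, n = 6; limma, adjusted p = 0.488) ran from 0.71 to 2.14 when 1 replicate was left out.

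*Itga8*, whose product also pairs with β1, was expressed above the floor in every library only of pericytes. It fell from 1823 to 3013 normalized counts contralaterally, with a median of 2281.5, to 642 to 1748 ipsilaterally, with a median of 1074.5. The hemispheres did not overlap and 6 of 6 pairs were lower. The log2 difference was -1.15 ± 0.22 (SE, n = 6; limma, adjusted p = 0.0249, and 0.0502 with the replicate block), and it was -1.25 in the mean of pairs 5 and 6 and -1.10 in that of pairs 1 to 4. Leaving out replicate 3, 4, 5 or 6 ended the call, and the estimates ran from -1.34 to -0.94. In endothelial cells *Itga8* was at 0 in all 6 ipsilateral libraries and at 0 to 39 contralaterally and was not tested. In astrocytes and microglia it was at 0 to 39 and 0 to 54 normalized counts.

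*Itga9*, which encodes a receptor subunit for cleaved osteopontin and tenascin C, was called lower in microglia. Contralateral libraries ranged from 305 to 509 normalized counts and ipsilateral libraries from 97 to 271, with all 6 pairs lower and no overlap. On the log2 scale the difference was -1.02 ± 0.27 (SE, n = 6; limma, adjusted p = 0.0279), with a mean of -1.35 in pairs 1 to 4 and -0.36 in pairs 5 and 6. The call was lost without replicate 1, 3 or 4, and the estimates ran from -1.19 to -0.84. In pericytes it was at 72 to 280 normalized counts contralaterally and 116 to 379 ipsilaterally, with a log2 difference of 0.62 ± 0.38 (SE, n = 6; limma, adjusted p = 0.464). *Itga4*, the α subunit of the leukocyte receptor for Vcam1, was at 81 to 662 normalized counts in pericytes, 17 to 112 in endothelial cells, 0 to 57 in astrocytes and 0 to 38 in microglia, with estimates between -0.60 and 0.14 and 0 calls (limma; no unadjusted p was under 0.05).

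**Figure D4:**
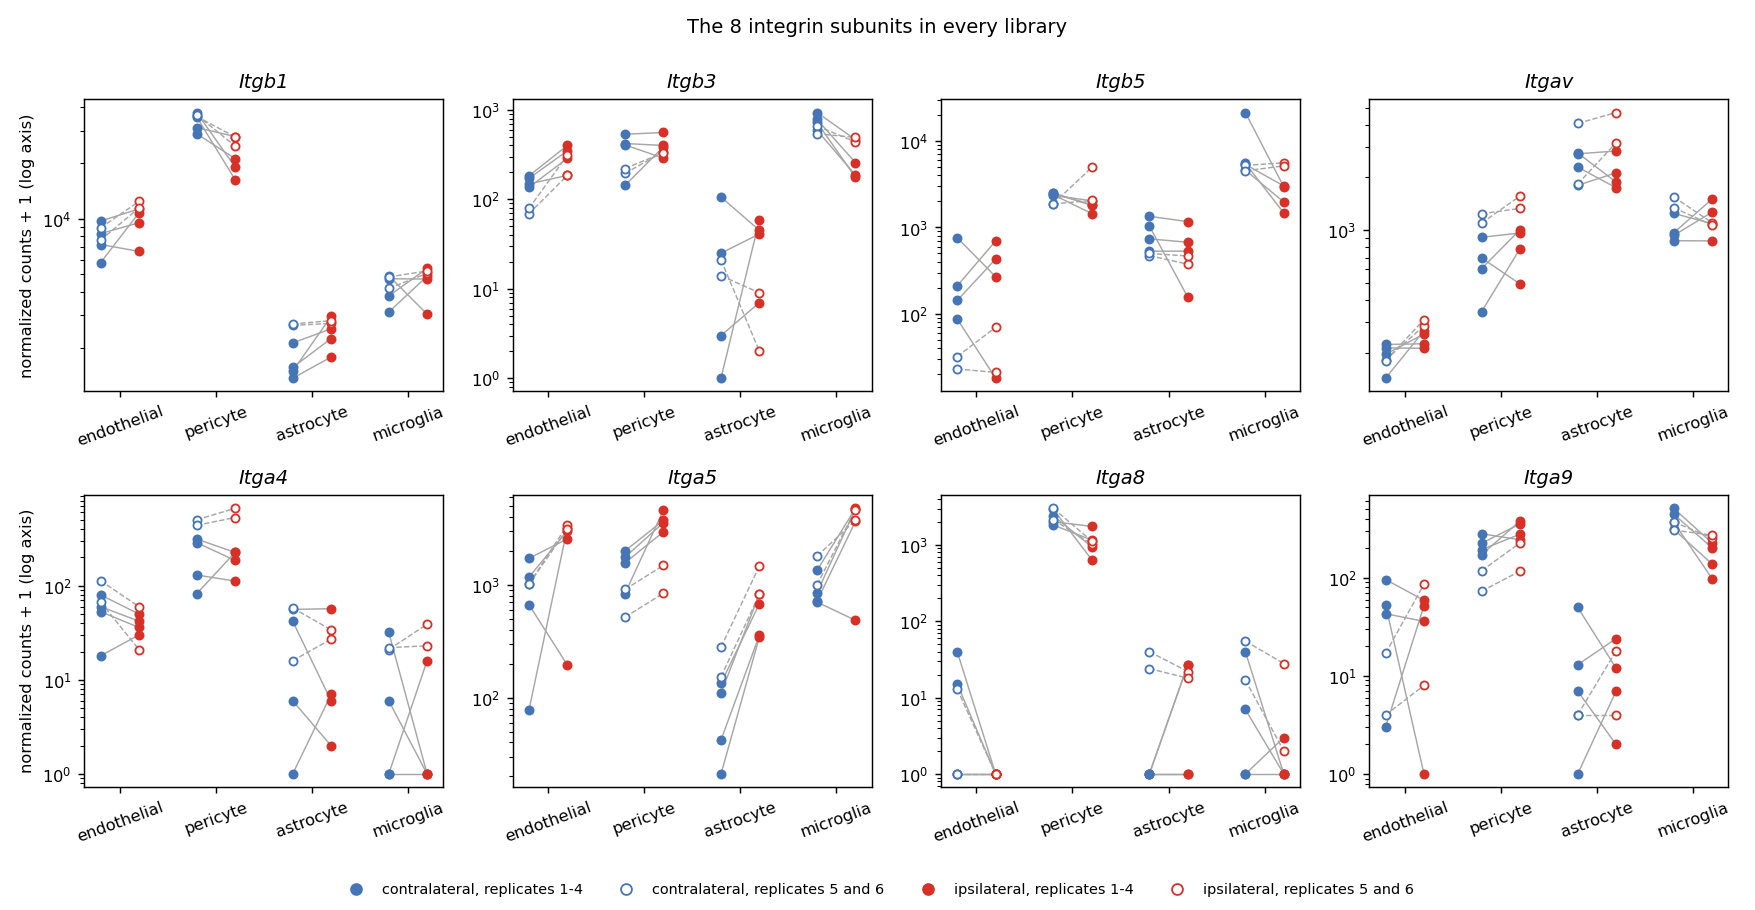
Normalized counts + 1 (log axis) of the 8 integrin subunits in each of the 48 libraries by cell type, contralateral in blue and ipsilateral in red, with lines joining the hemispheres of 1 replicate. Open points and broken lines are replicates 5 and 6. *Itga8* is high only in pericytes, and *Itgb1* is highest there. *Itga5* rises in all 6 astrocyte pairs, and *Itgb3* and *Itga9* fall in all 6 microglial pairs.

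Whether the stroke differences themselves varied between cell types was tested by interaction contrasts in a fit of all 48 libraries. Of 60 tests, 10 genes in 6 pairs of cell types, 0 were called, and 7 had an unadjusted p under 0.05 (limma). The smallest adjusted p was 0.176, and 0.0898 with the replicate block. Over all 15003 genes, the shares called were 0.0267% for endothelial cells against pericytes, 0.0600% for endothelial cells against astrocytes, 0.273% for endothelial cells against microglia, 0.00667% for pericytes against astrocytes, 0.727% for pericytes against microglia and 0.293% for astrocytes against microglia. The *Spp1* difference in pericytes minus that in microglia was -3.07 ± 1.46 (log2, SE; limma, adjusted p = 0.374). That of *Cd44* was between -1.17 ± 0.98 for astrocytes minus microglia and 0.98 ± 0.98 for endothelial cells minus astrocytes. The smallest unadjusted p values belonged to *Itgb1*, with 0.98 ± 0.25 for endothelial cells minus pericytes and -0.98 ± 0.25 for pericytes minus astrocytes (log2, SE; limma, unadjusted p = 3.2e-04 and 3.3e-04, adjusted p = 0.182 and 0.179). A call in 1 cell type and not in another is therefore not shown here to be a difference between them.

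The levels of the genes, in contrast, differed widely between cell types. Within the contralateral hemisphere, 42 of 60 contrasts of 2 cell types were called (limma on 48 libraries, adjusted p of at most 0.05 and a fold of at least 1.5), and 39 of 60 within the ipsilateral hemisphere, together 67.5%. Over all 15003 genes, 44.9% of the contralateral and 39.1% of the ipsilateral contrasts were called.

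Contralateral *Spp1* was highest in microglia and pericytes, which were not separated (log2 difference of pericytes minus microglia -0.02 ± 1.03, SE; adjusted p = 0.992), and lower in astrocytes, by 2.54 ± 1.03 than in pericytes (adjusted p = 0.0399). Astrocytes and endothelial cells were within their spread (endothelial cells minus astrocytes -0.78 ± 1.03, adjusted p = 0.558). In the ipsilateral hemisphere, microglia were above pericytes (pericytes minus microglia -3.09 ± 1.03, adjusted p = 0.0134), and the neighbours below were not separated. Contralateral *Cd44* was highest in astrocytes, above microglia by 1.67 ± 0.70 (adjusted p = 0.0415), with pericytes and microglia at a like level (-0.07 ± 0.70, adjusted p = 0.946) and endothelial cells below pericytes (-2.88 ± 0.70, adjusted p = 8.5e-04). Ipsilateral *Cd44* was not separated between astrocytes and microglia (0.50 ± 0.70, adjusted p = 0.577).

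*Itgb1* was called in all 6 contralateral and all 6 ipsilateral contrasts, in the order pericytes, endothelial cells, microglia and astrocytes. Contralateral *Itgav* followed another order, highest in astrocytes, then microglia and pericytes, which were not separated (adjusted p = 0.0545), and lowest in endothelial cells. *Itgb3* was lower in astrocytes than in each other cell type in both hemispheres. Microglia had the highest contralateral *Itgb5* level, with endothelial cells minus microglia at -5.91 ± 0.66 (log2, SE) and not separated from pericytes (adjusted p = 0.0534, and 0.0286 with the replicate block, which separated them). *Itga8* was higher in pericytes than in each other cell type, by 8.20 ± 1.06 over contralateral microglia, an estimate that rests on the added 1 because microglial values lie near 0. *Itga9* was high in contralateral microglia and pericytes, which were not separated (adjusted p = 0.229). For *Itga4*, the contralateral order was pericytes, endothelial cells, astrocytes and microglia, and no neighbours were separated, except pericytes and endothelial cells with the replicate block (adjusted p = 0.0457, and 0.0906 without it). *Itga5* was lower in contralateral astrocytes than in each other cell type, and the other 3 were not separated.

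Levels of different genes can be set side by side only per length, here as mean normalized counts per kb of exon, so the following are levels and not tests. In contralateral pericytes, *Itgb1* was at 8388 per kb, *Itgb5* at 632, *Itga8* at 324, *Itga5* at 257 and *Itgav* at 75.9. Contralateral endothelial cells had *Itgb1* at 1941 per kb, *Itga5* at 191 and *Itgb5* at 58.6, with *Cd44* at 3.32. In contralateral astrocytes, *Itgb1* was at 484 per kb, *Itgav* at 240, *Itgb5* at 217 and *Cd44* at 65.1, and ipsilateral astrocytes had *Cd44* at 341, above *Itgav* at 255. Ipsilateral microglia had *Itgb1* at 1153 per kb, *Itgb5* at 947, *Itga5* at 745 and *Cd44* at 235, against 14.5 for *Cd44* contralaterally. *Spp1* itself was at 173868 per kb in ipsilateral microglia, 27254 in ipsilateral pericytes, 16382 in ipsilateral endothelial cells and 9760 in ipsilateral astrocytes. The SD of these ipsilateral *Spp1* means was 136532, 26733, 19472 and 10992 (n = 6).

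Genes whose log2 levels followed *Spp1* most closely over the 48 libraries, among 15003 genes, were *Mmp12* (Pearson r = 0.893), *Lgals3* (0.888), *Lpl* (0.864), *Cd72* (0.853) and *Tgfbi* (0.844). *Mmp12*, a macrophage metalloproteinase, had a mean of 7490 normalized counts in ipsilateral microglia, 32.2 in contralateral microglia and 294 in ipsilateral endothelial cells, and was listed at 0 in every contralateral endothelial and astrocyte library. For *Cd44* they were *Lgals3* (0.82), which encodes the galactose-binding lectin galectin-3, *Cd63-ps* (0.793), *Tmem120a* (0.792), *Cd63* (0.787), a lysosomal tetraspanin, and *Tnc* (0.767), tenascin C. *Cd63-ps* is a copy of *Cd63*, and the study left out reads that aligned to more than 1 region, so reads fitting both are in neither count. These values are descriptions, since libraries share cell types, mice and microglial RNA.

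Genes of the surrounding pathway were counted from lists. Of all tested genes, 4.29% were called higher and 6.27% lower in microglia. For astrocytes these shares were 0.334% and 0.00655%, for pericytes 0.441% and 0.581%, and for endothelial cells 0.362% and 0.128%. With the replicate block, the shares were 4.54% and 6.50% in microglia and 1.25% and 0.334% in astrocytes. Blocked shares were 0.684% and 0.978% in pericytes and 0.378% and 0.174% in endothelial cells. Each list's counts stand beside the shares of the same fit as a description. Among proteases and partners of osteopontin, 1 of 9 tested genes was called higher in endothelial cells, and pericytes and astrocytes each had 1 of 12 and microglia 5 of 10. The list had 0 calls of lower genes. With the block, 2, 2, 3 and 5 were called higher. *Plaur*, the urokinase receptor, rose from 2107 ± 997 to 6714 ± 1400 normalized counts in endothelial cells (SD, n = 6; limma, adjusted p = 0.0187) and in pericytes from 164.3 ± 95.7 to 1142 ± 679 (adjusted p = 0.0259). The called astrocyte gene was *Timp1*, a metalloproteinase inhibitor, with a log2 difference of 3.08 ± 0.44 (SE; adjusted p = 0.00805). In microglia, *Mmp12* rose by 7.83 ± 0.57, *Fam20c*, the kinase that phosphorylates secreted proteins including osteopontin, by 3.16 ± 0.31, *Tgm2*, a transglutaminase that cross-links matrix proteins, by 1.80 ± 0.29 and *Timp1* by 3.37 ± 0.75 (log2, SE; limma, adjusted p between 2.8e-06 and 0.011). Microglial *Timp1* was at 8 ± 7.46 normalized counts contralaterally (SD), near the floor, and at 81.67 ± 68.6 ipsilaterally, so its log2 size depends on the added 1. The median log2 difference of the list was 2.54, 1.66, 2.48 and 1.82 in endothelial cells, pericytes, astrocytes and microglia, and that of all genes -0.03, -0.04, -0.06 and -0.18.

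Other matrix ligands of integrins were called higher for 3 of 21 tested genes in microglia, 2 of 29 in astrocytes, 1 of 28 in pericytes and 0 of 25 in endothelial cells, and lower for 1 in endothelial cells and 1 in microglia. With the block, 4, 4, 2 and 1 were called higher. Endothelial *Nov*, a matricellular protein of the CCN family, fell from 923.2 ± 285 to 195.2 ± 69.6 normalized counts (SD, n = 6; limma, adjusted p = 0.00304). *Tnc* rose in pericytes from 6.5 ± 9.01 to 458.7 ± 335 normalized counts (adjusted p = 0.00637) and in astrocytes from 41.33 ± 36.9 to 387.5 ± 187 (adjusted p = 0.0178), and *Fga*, the fibrinogen α chain, in astrocytes from 0.3333 ± 0.816 to 180.5 ± 95.9 (adjusted p = 1.4e-04). Microglial *Postn*, *Thbs1* and *Fn1*, which encode periostin, thrombospondin and fibronectin, rose by 3.41 ± 0.30, 2.97 ± 0.29 and 2.25 ± 0.34 (log2, SE; largest adjusted p = 0.00138), and *Vcam1* fell by 0.76 ± 0.23 on the log2 scale (adjusted p = 0.0486). The list's median log2 difference was 0.15, 0.20, 0.63 and 0.60 in endothelial cells, pericytes, astrocytes and microglia.

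Among genes of hyaluronan and other Cd44 ligands, 3 of 13 tested genes were called in microglia, 1 of 17 in astrocytes and 0 of 14 in both vascular cell types, all higher. With the block the astrocyte count was 2. Called without the block were astrocyte *Lyve1*, a hyaluronan receptor of lymphatic vessels and perivascular macrophages (log2 difference 5.65 ± 1.10, SE; limma, adjusted p = 0.0466), and microglial *Mif*, a cytokine (1.62 ± 0.29, adjusted p = 0.00294), *Srgn*, the proteoglycan serglycin (1.31 ± 0.30, adjusted p = 0.0124), and *Vcan*, the proteoglycan versican (3.89 ± 0.95, adjusted p = 0.0175). Contralateral *Lyve1* was at 12 ± 18.3 and *Vcan* at 6.833 ± 9.15 normalized counts (SD), so low that their log2 sizes depend on the added 1. Of 30 tested adhesion adaptors, 0 were called in endothelial cells, pericytes and astrocytes, 1 was called higher in microglia and 3 were lower, against 4.29% and 6.27% of all microglial genes, which sets nothing apart about the list. With the block, 1 was called in astrocytes. *Ezr*, which encodes the membrane linker ezrin, rose by 1.24 ± 0.31, whereas *Tln2*, *Tns1* and *Parvg*, which encode the integrin-linked proteins talin 2, tensin 1 and parvin γ, fell by 1.65 ± 0.27, 1.09 ± 0.24 and 1.09 ± 0.30 on the log2 scale (SE; limma, largest adjusted p = 0.0326). Of the integrin subunits beyond the 8, 12 to 14 were tested per cell type and 1 was called, *Itgax*, the α subunit of complement receptor 4, which rose in microglia from 83.83 ± 41.9 to 362 ± 191 normalized counts (SD, n = 6; limma, adjusted p = 0.0133). With the block, 1 was lower in pericytes. The median log2 differences in endothelial cells, pericytes, astrocytes and microglia were 0.21, 0.80, 0.38 and 0.13 for the hyaluronan list, 0.18, 0.10, 0.11 and -0.10 for the adaptors and 0.98, 0.83, 0.30 and 0.16 for the other integrins.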

How the data were processed

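RNA of sorted cells was amplified with a SMART-Seq HT kit, which keeps no strand, and sequenced. Per the labels, the submitters' processing notes name FastQC, Trimmomatic 0.38, STAR 2.6.1d, featureCounts 1.6.3 and DESeq2 1.18.1, with the build GRCm38. The values deposited by the authors are DESeq2-normalized counts rounded to whole numbers, treated here as a score and not as raw counts, so no count model was used. No precision per read beyond the estimated worth of 1 read could be given.

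Tests used limma 3.58.1 in R 4.3.3 (lmFit, then eBayes with a trend), two-sided on log2(normalized count + 1), with 1 fit per cell type over genes averaging 10 or more normalized counts and Benjamini-Hochberg adjustment over all genes tested. Interactions and levels were tested in a fit of 48 libraries. Summaries and plots used Python 3.11.15, numpy 2.4.6, pandas 2.3.3 and matplotlib 3.10.9. The limma step was tested on simulated data. Replicate numbers pair the hemispheres, since both come from the same pooled mice. Deviations from group means correlated, for the same number and for different numbers respectively, with a mean r of 0.23 and -0.04 (endothelial cells), 0.23 and -0.04 (pericytes), 0.38 and -0.08 (astrocytes) and 0.14 and -0.03 (microglia).

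The 10 genes and the lists were chosen with earlier results of these data known. From each list, up to 4 called genes per cell type with the smallest adjusted p were named, and for *Spp1* and *Cd44* the 5 genes with the highest r over 48 libraries. Gene coordinates are those of the deposited table, exon lengths are unions of GENCODE M21 exons, and 8 of the 10 genes had the same coordinates in that annotation. *Mmp7*, *Plg*, *Mepe*, *Ilk* and *Fermt1* were listed but not analysed here. Neuronal markers (10 genes) summed to 0 to 7745 normalized counts per library. Alternatives were pseudocounts of 0.1 and 10, no filter or one at a mean of 50, the replicate block, a joint fit, rescaling within the cell type, no expression rule, each replicate left out, and replicates 1 to 4 or 5 and 6 alone.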

Additional observations from a re-analysis of the deposited data

Results flagged for a closer look

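In a group of 6 libraries, the highest or the lowest value was set apart when its gap to the nearest other value was a larger share of the whole range than Dixon's critical value for 6 values. Chance passes it in about 1 of 20 groups of normally distributed values. Normalized counts were used without a log, and several groups are skewed or near 0, so that rate need not hold here. Of the 80 groups of 1 gene, cell type and hemisphere, 14 held such a value. For *Spp1*, ipsilateral microglia of replicate 2 were at 707269 normalized counts, with the others at 87954 to 306327. For *Cd44*, replicate 2 of contralateral endothelial cells was at 96 (others 4 to 19), ipsilateral endothelial cells of replicate 3 at 1042 (others 26 to 280) and contralateral astrocytes of replicate 6 at 1580 (others 152 to 356). *Itgb1* was at 3033 in ipsilateral microglia of replicate 2 (others 4701 to 5374), and *Itgb3* at 105 in contralateral astrocytes of replicate 2 (others 0 to 24). *Itgb5* reached 759 in replicate 2 of contralateral endothelial cells (others 22 to 210), at 4952 in ipsilateral pericytes of replicate 6 (others 1449 to 2055) and at 21423 in contralateral microglia of replicate 1 (others 4521 to 5523). *Itga5* was at 194 in ipsilateral endothelial cells of replicate 1 (others 2561 to 3400) and at 485 in ipsilateral microglia of replicate 2 (others 3665 to 4782). In groups with few counts, the highest values set apart were *Itga8* at 39 in contralateral endothelial cells of replicate 1 and at 27 in ipsilateral microglia of replicate 6, and *Itga9* at 49 in contralateral astrocytes of replicate 2. Of the 14 values, 7 came from replicate 2.

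For 2 genes, every pair of 1 cell type moved one way and every pair of another the opposite way. *Itgb3* was higher in all 6 endothelial pairs and lower in all 6 microglial pairs, and the endothelial minus the microglial log2 difference was 2.33 ± 0.94 (SE; limma, adjusted p = 0.339, and 0.247 with the replicate block). *Itgb1* was lower in all 6 pericyte pairs and higher in all 6 astrocyte pairs, and the pericyte minus the astrocyte difference was -0.98 ± 0.25 (SE; limma, adjusted p = 0.179, and 0.0898 with the replicate block). Neither passed the test of the difference.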

How the results depend on the processing

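Of 341 estimates of single genes under the alternatives with a test, other than those that left out 1 replicate, 7 changed sign, 16 lost their call and 7 gained one. The cause was not tested. The number of genes called in endothelial cells, 0, became 2 when blocked by replicate, 2 when all 48 libraries were fitted jointly and 1 with replicates 1 to 4 alone. In pericytes, 2 became 1 with a pseudocount of 0.1, without the filter and in the joint fit, and 0 with replicates 1 to 4, where fewer libraries enter. The pericyte block also had 2, but with *Spp1* in place of *Itga8*. In astrocytes, 2 became 1 with a pseudocount of 0.1, without the filter and with a mean of at least 50. In microglia, 5 became 4 with a pseudocount of 0.1, without the filter and with replicates 1 to 4, and 2 in the joint fit. Without 1 replicate, the counts were 0 to 0 in endothelial cells, 0 to 1 in pericytes, 0 to 2 in astrocytes and 2 to 5 in microglia. Calls over all tested genes moved as well. In the same order of cell types, they numbered 65, 139, 52 and 1404 in the main fits. Without 1 replicate they ran from 10 to 84, 11 to 112, 12 to 61 and 557 to 1909, and with replicates 1 to 4 they were 11, 31, 48 and 787. All-gene calls were 73, 226, 242 and 1468 with the block and 235, 288, 89 and 827 in the joint fit. A pseudocount of 0.1 gave 67, 122, 34 and 1258, and leaving out the filter gave 36, 84, 37 and 1056. The filter at a mean of 50 gave 67, 155, 32 and 1475. The pairing by replicate block changed no other stroke call of the 10 genes. Between cell types it gave 84 calls for 81, adding *Itgb5* in contralateral pericytes against microglia (limma, adjusted p = 0.0286), *Itga4* in contralateral endothelial cells against pericytes (0.0457) and *Itga5* in ipsilateral endothelial cells against astrocytes (0.0386). Those 81 calls ran from 74 to 88 over all alternatives, and the 0 interactions remained 0.

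Reversed estimates under these alternatives were all uncalled. In endothelial cells, *Itgb5* was -0.11 and *Itga9* -0.64 with replicates 1 to 4, and *Itga9* was -0.30 with a pseudocount of 0.1. In astrocytes, *Itgav* was -0.16 and *Itga9* -0.04 with replicates 1 to 4, and *Itga4* was 0.12 with a pseudocount of 0.1. Pericyte *Itgb5* was 0.01 after rescaling. With replicates 5 and 6 alone, which gave values without a test, 6 of 39 estimates changed sign, to 0.77 for *Itgb5* in pericytes, -2.01 for *Itgb3* and -0.64 for *Itga8* in astrocytes, and 0.15 for *Itgb5*, -0.41 for *Itgav* and 0.48 for *Itga4* in microglia. Without 1 replicate, the ranges that crossed 0 were -0.24 to 0.56 for *Itgb5* and -0.67 to 1.30 for *Itga9* in endothelial cells, -0.34 to 0.08 for *Itgb5* and -0.13 to 0.29 for *Itga4* in pericytes, -0.67 to 1.19 for *Itgb3*, -0.09 to 0.18 for *Itgav*, -0.88 to 0.25 for *Itga4* and -0.16 to 0.76 for *Itga9* in astrocytes, and -0.11 to 0.11 for *Itgav* and -1.33 to 0.47 for *Itga4* in microglia. Genes under about 10 normalized counts lie near the 3-read floor, which limits *Itga4*, *Itga8* and *Itga9* outside their main cell types.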
